A study of Mus musculus with 8 samples.

Results

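The genes described here encode the machinery with which cells show peptide fragments to T cells: the MHC class I and class II molecules, called H2 in the mouse, and the proteins that supply and load their peptides. They were taken as the rows of the deposited count table whose symbol starts with H2-, pseudogene symbols with -ps left out, together with Cd74, Ciita, Nlrc5, B2m, Tap1, Tap2, Tapbp, Psmb8, Psmb9 and Psmb10. That table lists 31910 genes, of which 55 met this rule, and 31 of them had 10 or more counts in at least 3 libraries and were kept. The rest were 18 genes listed at 0 in every library and 6 with fewer counts. By symbol, 32 of the 55 were placed with the class I heavy chains, 12 with class II and 8 with class I loading and its regulation. The other 3 (H2-Ke6, H2-Pa and H2-Pb) were not placed in these groups.

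The libraries came from whole livers of mice that had received AAV2/9-SA (4 libraries, SA 1 to SA 4) or AAV2/9-Ctrl (4 libraries, Ctrl 1 to Ctrl 4), both of them adeno-associated viral vectors. The title of the series concerns a tetramer-forming bacterial protein that binds acetyl-CoA carboxylase and its effect on inflamed fatty liver (steatohepatitis). The series describes injection into the tail vein at 4.8e10 vector genomes for each mouse, once feeding had gone on for 7 weeks, and names a high-fat diet of 24 weeks, a diet rich in fat and cholesterol given for 16 weeks with sugared water, and normal chow. Which of these diets the 8 libraries stand for, the strain and its H2 haplotype, the sex, the age, the vectors' promoters and whether each library is 1 animal are not given in the sources used here. The p-values therefore measure the spread between these samples.

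MHC class I molecules consist of a heavy chain and the light chain beta-2-microglobulin and are carried by nearly all nucleated cells, hepatocytes included. They present peptides that the proteasome cuts in the cytosol and the TAP transporter carries into the endoplasmic reticulum, and cytotoxic T cells read them. MHC class II molecules consist of an alpha and a beta chain and are largely restricted to dendritic cells, B cells and macrophages such as the Kupffer cells of the liver, where they present peptides from ingested protein to helper T cells. Both sets are induced by interferon gamma, class I through the regulator NLRC5 and class II through its relative CIITA, which act on shared promoter elements called the X and Y boxes.

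The genes differ in exact matches to letters of these and other promoter elements. The starts of 3 class I and 2 class II genes whose levels follow are printed to show how. The sequences run from 250 bases before to 50 bases after the start of the gene, are credited to RefSeq with build GRCm38.p6, and lie within the H2 complex on chromosome 17. Capitals mark exact matches on either strand to 4 sets of letters, namely GGGGATTCCC (the kappaB element of H2-K1, of the kind NF-kappaB binds), AGTTTCACTTCT (the interferon-stimulated response element of H2-K1), TGACG (the core of the X2 box) and ATTGG (the Y box), which reads as CCAAT on the other strand. In H2-Aa the capitals TGACGTCA hold 2 overlapping matches to TGACG, 1 on each strand.
H2-K1 (chr17:34000298-34000597, minus strand): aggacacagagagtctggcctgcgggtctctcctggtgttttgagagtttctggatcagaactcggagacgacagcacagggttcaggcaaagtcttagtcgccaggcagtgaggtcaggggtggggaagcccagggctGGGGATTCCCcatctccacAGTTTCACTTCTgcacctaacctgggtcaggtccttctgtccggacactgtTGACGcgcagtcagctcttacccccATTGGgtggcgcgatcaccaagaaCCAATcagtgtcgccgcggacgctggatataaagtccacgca
H2-D1 (chr17:35262844-35263143, plus strand): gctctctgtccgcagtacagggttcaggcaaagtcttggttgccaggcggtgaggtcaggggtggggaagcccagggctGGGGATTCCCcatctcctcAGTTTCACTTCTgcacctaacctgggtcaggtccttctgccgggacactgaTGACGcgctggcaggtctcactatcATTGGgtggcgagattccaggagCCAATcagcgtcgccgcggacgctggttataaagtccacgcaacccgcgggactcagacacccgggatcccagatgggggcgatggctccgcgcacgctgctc
H2-Q10 (chr17:35469839-35470138, plus strand): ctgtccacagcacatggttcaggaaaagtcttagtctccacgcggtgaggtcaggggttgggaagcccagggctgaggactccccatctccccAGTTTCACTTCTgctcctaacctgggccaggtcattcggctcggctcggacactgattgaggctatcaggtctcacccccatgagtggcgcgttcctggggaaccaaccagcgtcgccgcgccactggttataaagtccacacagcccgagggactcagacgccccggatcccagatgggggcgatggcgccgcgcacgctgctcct
H2-Aa (chr17:34287774-34288073, minus strand): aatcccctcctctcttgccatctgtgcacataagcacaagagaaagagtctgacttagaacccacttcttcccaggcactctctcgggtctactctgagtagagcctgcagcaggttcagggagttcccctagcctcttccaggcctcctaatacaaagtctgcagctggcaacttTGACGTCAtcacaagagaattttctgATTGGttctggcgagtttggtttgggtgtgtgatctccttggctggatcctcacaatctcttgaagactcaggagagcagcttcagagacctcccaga
H2-Eb1 (chr17:34305617-34305916, plus strand): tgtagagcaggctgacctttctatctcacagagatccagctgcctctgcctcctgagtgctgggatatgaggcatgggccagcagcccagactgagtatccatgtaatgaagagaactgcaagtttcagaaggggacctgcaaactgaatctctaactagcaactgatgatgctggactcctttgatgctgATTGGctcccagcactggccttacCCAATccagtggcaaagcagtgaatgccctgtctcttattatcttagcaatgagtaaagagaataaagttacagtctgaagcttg
H2-K1, from which the 2 longer sets of letters were read, and H2-D1 each held 1 match to the kappaB letters, 1 to the interferon element, 1 to X2 and 2 to Y. H2-Q10 held a match to the interferon element only. H2-Aa held matches to X2 and Y, and H2-Eb1 held 2 matches to Y. Of 32851 promoters of this length, 0.107% held the kappaB letters, 0.0335% the interferon element, 20.8% the X2 letters and 37.4% the Y letters. Of the 37 genes of the set with a promoter in the table, 4 held kappaB, 6 the interferon element, 15 X2 and 31 Y. The kappaB matches were in H2-K1 itself, H2-D1, H2-Q6 and H2-Q7, and the interferon matches also in H2-Q4 and H2-Q10. Because these letters came from H2-K1, a member of the set, their counts are no fair comparison with all promoters. The short X2 and Y letters are common everywhere, and a match in these letters is a description of the sequence and not a measured site. An element with other letters is not marked, so a missing match does not show that the element is absent.

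SA 4 had 28184001 counts in total and so the smallest counting error, while the other 7 libraries had 14114145 to 15922829. A gene with 3 counts stood, depending on the library, at 0.108 to 0.215 CPM, the counts over the library's normalized total times 1e+06. Of the 31 kept genes, 28 passed the filter on low counts used by the test, and they held 26 different rows of counts, since H2-T22 and H2-T9 were identical in every library, as were H2-Q7 and H2-Q9. Each of these pairs is described once, and which gene of a pair the reads came from cannot be told. The 5 hepatocyte markers summed to 56990 to 80690 CPM in SA and 64630 to 89690 CPM in Ctrl libraries. The share of mitochondrial transcripts was 9.23% in Ctrl 4, against 3.55% to 4.87% elsewhere.

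No antigen presentation gene was past the threshold between SA and Ctrl livers. Of the 26 rows 0 had an adjusted p under 0.05 in the quasi-likelihood test of edgeR, in which 0.0162% of 12358 tested genes did (0.00809% higher and 0.00809% lower), and 0 in DESeq2, in which 0.346% of genes did. The edgeR share is 2 genes, a count that was 19 without SA 1 and 0 without Ctrl 4, with 0 antigen presentation genes in each case. At an unadjusted p under 0.05 in edgeR, 1 row was higher and 2 were lower in SA, against 6.21% of all genes in either direction (2.91% higher and 3.29% lower). In none of the 26 rows did the 4 SA libraries all lie above or all below the 4 Ctrl libraries, which they did in 3.12% of all genes (1.66% above and 1.46% below). The 95% interval of the fold change stayed inside 2-fold either way for 17 of the 26, and for the other 9, mostly genes with few counts, it reached 2-fold.

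The class I heavy chains had a median log2 fold change (SA over Ctrl) of -0.23, with 3 positive and 10 negative among 13 rows. The class II genes had a median of -0.23, with 3 positive and 5 negative among 8. The genes of class I loading and regulation had a median of 0.03, with 4 positive and 1 negative among 5. Over all tested genes the median was -0.01 and 51.3% were negative. These medians cover only genes that passed the filter and are descriptions. In bulk liver RNA, fewer cells of a type and less RNA per cell cannot be told apart.

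**Figure D1:**
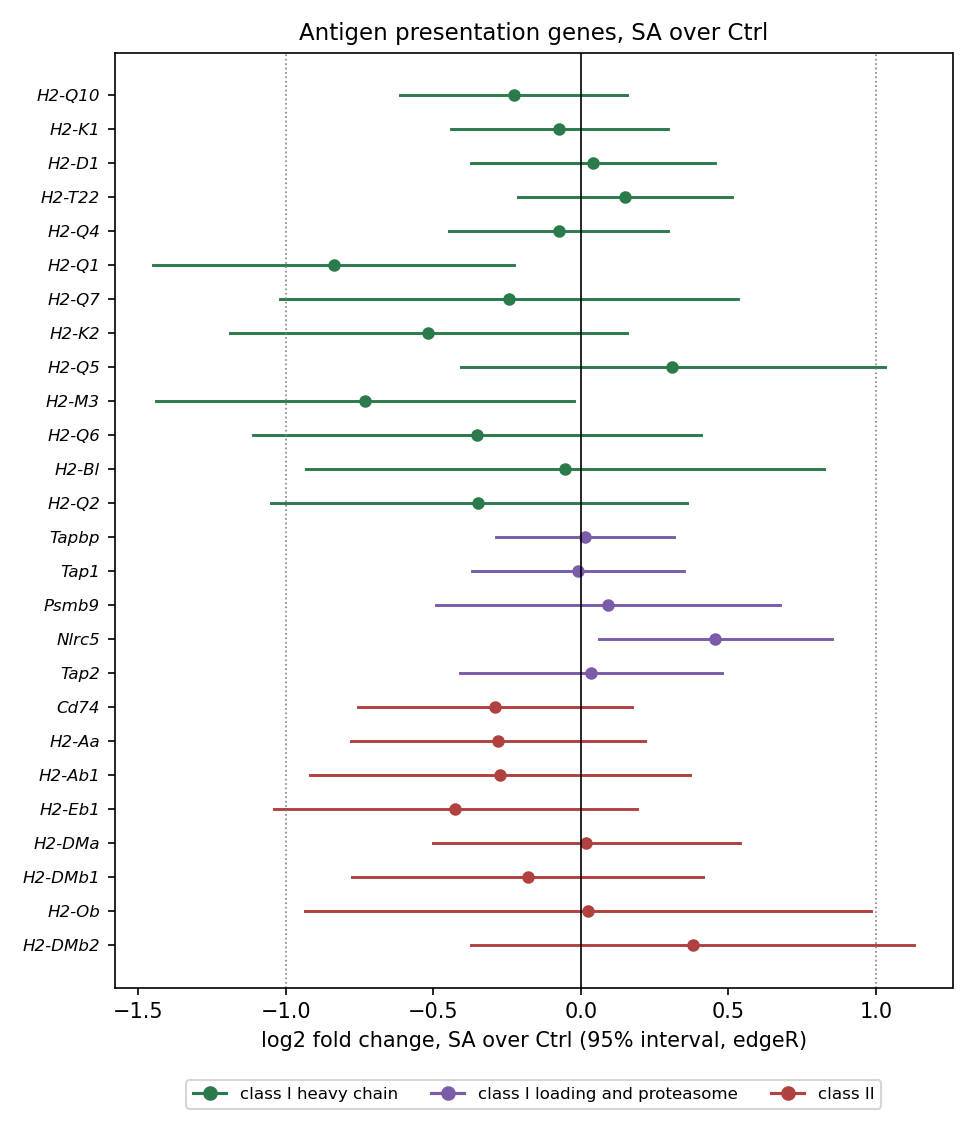
Fold change of each antigen presentation gene with enough counts for the test. The horizontal axis is the log2 fold change, SA over Ctrl, the points are edgeR estimates and the lines their 95% intervals, with dotted lines at 2-fold either way. H2-Q1 (-0.84), H2-M3 (-0.73) and Nlrc5 (0.46) have intervals that leave out 0 before adjustment, and no gene has an adjusted p under 0.05.

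The most abundant class I chain was H2-Q10, which encodes Q10, a class I molecule that the liver secretes into serum. H2-Q10 stood at 2174, 2004, 1628 and 2119 CPM in SA 1 to 4, against 2788, 2485, 2157 and 1848 CPM in Ctrl 1 to 4. The Ctrl libraries reached higher, and the groups overlapped, with Ctrl 4 below 3 of the 4 SA libraries. The log2 fold change was -0.23 ± 0.18 (SE; adjusted p = 0.989, edgeR).

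H2-K1 and H2-D1 encode the classical class I chains K and D, which present peptides to cytotoxic T cells. H2-K1 stood at 1397, 1503, 1285 and 1568 CPM in SA 1 to 4, against 1733, 1742, 1398 and 1181 CPM in Ctrl 1 to 4. All 4 SA libraries lay inside the range of the Ctrl libraries, and the fold change was 0.95 with a 95% interval from 0.737 to 1.23 (adjusted p = 0.996, edgeR). H2-D1 stood at 681, 637, 641 and 831 CPM in SA 1 to 4, against 838, 718, 702 and 455 CPM in Ctrl 1 to 4. Its SA libraries also lay inside the Ctrl range, with Ctrl 4 the lowest of the 8, and the fold change was 1.03 with a 95% interval from 0.773 to 1.37 (adjusted p = 0.996, edgeR).

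The proportions among these 3 chains were then set against each other within a library. Counts of H2-D1 over counts of H2-K1 were 0.424 to 0.53 in SA and 0.385 to 0.502 in Ctrl libraries, with overlapping groups. Counts of H2-Q10 over counts of H2-K1 averaged 1.38 ± 0.125 in SA and 1.54 ± 0.0777 in Ctrl libraries (SD, n = 4 each). SA 2, SA 3 and SA 4 at 1.33, 1.27 and 1.35 lay below all 4 Ctrl libraries (1.43 to 1.61), and SA 1 at 1.56 lay among them. No test was made of this ratio. Because genes differ in length, the order of levels between them is read on the deposited FPKM scale, where H2-Q10 was at 1591 to 2083 FPKM in SA and 1508 to 2701 FPKM in Ctrl. On that scale H2-K1 was at 1102 to 1350 FPKM in SA and 855.5 to 1521 FPKM in Ctrl, and H2-D1 at 421 to 550.3 FPKM in SA and 248.9 to 583.9 FPKM in Ctrl. The order H2-Q10, H2-K1, H2-D1 therefore held within every library and for the group means. The Ctrl ranges of H2-Q10 and H2-K1 met only between different libraries, Ctrl 4 for H2-Q10 (1508 FPKM) and Ctrl 1 for H2-K1 (1521 FPKM).

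**Figure D2:**
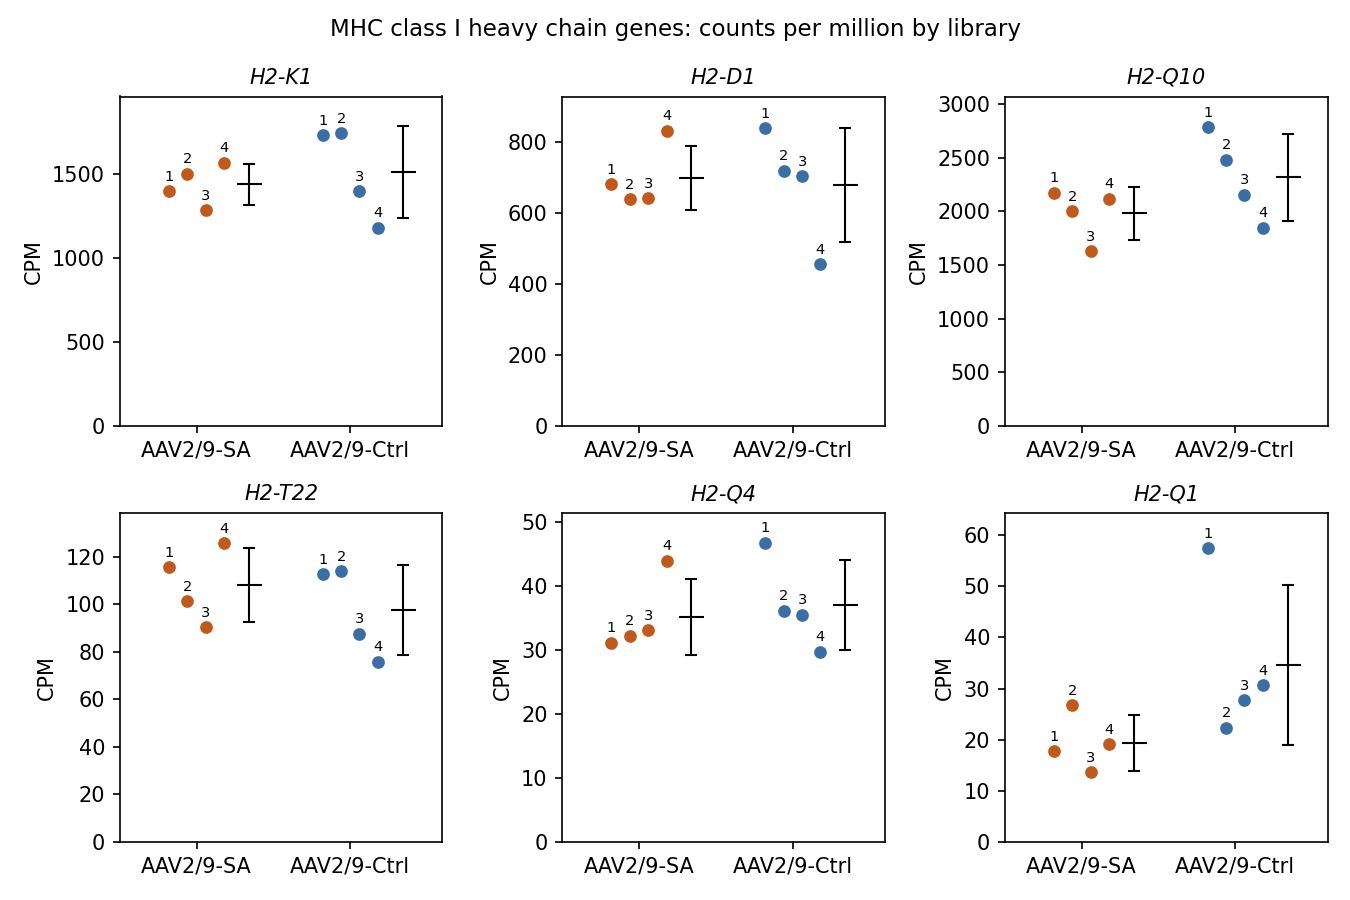
Levels of 6 class I heavy chain genes in each library. The vertical axes are CPM from 0, points are libraries with their replicate numbers, and the bars are the mean ± SD of 4 libraries. SA points lie left of Ctrl points in each panel, the groups overlap in all 6 genes, and Ctrl 1 stands apart at 57.5 CPM in H2-Q1.

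Among the less abundant class I chains, H2-Q1 was the gene of the whole set with the smallest unadjusted p. H2-Q1, of the Qa region of the H2 complex, stood at 17.7, 26.8, 13.7 and 19.2 CPM in SA 1 to 4, against 57.5, 22.3, 27.8 and 30.7 CPM in Ctrl 1 to 4. The SA libraries were mostly lower, SA 2 overlapped Ctrl 2, and Ctrl 1 stood well above the rest. The log2 fold change was -0.84 ± 0.28 (SE; unadjusted p = 0.0111 and adjusted p = 0.571, edgeR) and -0.48 without Ctrl 1. In the deposited FPKM table H2-Q1 stood at 1.04, 1.07, 10.4 and 1.19 FPKM in SA, against 1.78, 0.436, 4.66 and 3.46 FPKM in Ctrl, and the difference on the log2(FPKM + 1) scale was 0.02.

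H2-M3 encodes a non-classical chain that presents peptides with a formylated methionine, such as those of bacteria. It stood at 2.55, 4.57, 2.35 and 2.89 CPM in SA 1 to 4, against 7.64, 5.03, 5.13 and 2.73 CPM in Ctrl 1 to 4. Ctrl 4 lay among the SA libraries and the other Ctrl libraries above them. The log2 fold change was -0.73 ± 0.33 (SE; unadjusted p = 0.0437 and adjusted p = 0.797, edgeR).

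H2-K2 had a log2 fold change of -0.52 (adjusted p = 0.942, edgeR), with 2.68 to 4.99 CPM in SA and 2.80 to 7.51 CPM in Ctrl. H2-Q2 had -0.35 (adjusted p = 0.996, edgeR), with 0.751 to 1.07 CPM in SA and 1.005 to 1.39 CPM in Ctrl. Both genes had few counts, and in each the groups overlapped.

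The other class I rows lay closer to no difference or had wide intervals. H2-T22, a non-classical chain recognised by some gamma delta T cells, stood at 116, 101, 90.3 and 126 CPM in SA 1 to 4, against 113, 114, 87.6 and 75.7 CPM in Ctrl 1 to 4, a log2 fold change of 0.15 ± 0.17 (SE; adjusted p = 0.996, edgeR). H2-Q4 stood at 31.2, 32.3, 33.1 and 44 CPM in SA 1 to 4, against 46.8, 36.2, 35.5 and 29.8 CPM in Ctrl 1 to 4, a log2 fold change of -0.08 ± 0.17 (SE; adjusted p = 0.996, edgeR). The 2 genes had group means within 1 SD of each other.

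H2-Q7, which encodes the non-classical molecule Qa-2 together with H2-Q9, had a log2 fold change of -0.24, H2-Q6 had -0.35, H2-Bl -0.05 and H2-Q5 0.31, all with adjusted p = 0.996 (edgeR). H2-Q7 was at 4.05 to 5.63 CPM in SA and 2.51 to 10.96 CPM in Ctrl, H2-Q6 at 0.872 to 1.95 CPM in SA and 1.39 to 1.87 CPM in Ctrl, H2-Bl at 0.938 to 1.81 CPM in SA and 0.646 to 2.23 CPM in Ctrl, and H2-Q5 at 4.30 to 5.90 CPM in SA and 1.51 to 5.49 CPM in Ctrl. In H2-Q7, H2-Bl and H2-Q5 the spread of the Ctrl libraries took in nearly the whole range. H2-M2, kept but too low for the test, had 3 to 15 counts in SA libraries and 0 to 27 counts in Ctrl libraries (DESeq2, log2 fold change -0.65, adjusted p = 0.998).

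Beta-2-microglobulin, the light chain of every class I molecule, is encoded by B2m, which the count table lists at 0 in all 8 libraries. The deposited FPKM table holds B2m at 1934, 2331, 2167 and 2366 FPKM in SA 1 to 4, against 2739, 2191, 2070 and 2936 FPKM in Ctrl 1 to 4. On that scale it exceeded all 3 abundant heavy chains in its group mean. The groups overlapped, with the 2 highest values in Ctrl libraries, and the log2 difference was -0.16 ± 0.18 (SE; limma on log2(FPKM + 1), adjusted p = 0.999). Of 9255 genes, 0.0324% had an adjusted p under 0.05 in that fit, none of them in the antigen presentation set, and 3.44% had an unadjusted p under 0.05, H2-T22 among them.

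TAP1 and TAP2 form the transporter of peptides into the endoplasmic reticulum, and tapasin, encoded by Tapbp, holds the class I molecule beside it. Tap1 stood at 68.5, 45.5, 50.5 and 51.8 CPM in SA 1 to 4, against 55.1, 61.6, 58.4 and 42.8 CPM in Ctrl 1 to 4, a log2 fold change of -0.01. Tap2 stood at 17.7, 13.7, 16.9 and 19.6 CPM in SA 1 to 4, against 18.0, 17.2, 20.6 and 10.6 CPM in Ctrl 1 to 4, a log2 fold change of 0.03. Tapbp had the narrowest interval of the set: it stood at 73.6 to 93.9 CPM in SA and 69.0 to 91.0 CPM in Ctrl libraries, a fold change of 1.01 with a 95% interval from 0.82 to 1.24. For Tap1, Tap2 and Tapbp the edgeR adjusted p = 0.996.

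The immunoproteasome subunits PSMB8, PSMB9 and PSMB10 take the place of PSMB5, PSMB6 and PSMB7 in cells exposed to interferon gamma and change which peptides are cut. Psmb9 stood at 35.3, 18.1, 19.6 and 29.4 CPM in SA 1 to 4, against 25.3, 35.8, 19.7 and 15.5 CPM in Ctrl 1 to 4, a log2 fold change of 0.09 ± 0.27 (SE; adjusted p = 0.996, edgeR). The libraries of both groups were widely spread around almost the same mean. Psmb10 is listed at 0 in the count table and stood at 41.2, 40.3, 35.3 and 56.4 FPKM in SA 1 to 4, against 40.5, 32.0, 40.1 and 16.1 FPKM in Ctrl 1 to 4, a log2 difference of 0.48 ± 0.30 (SE; limma on log2(FPKM + 1), adjusted p = 0.999). Psmb8 had only 6 to 14 counts in SA and 8 to 20 counts in Ctrl libraries, yet stood at 24.2 to 35.6 FPKM in SA and 10.9 to 29.1 FPKM in Ctrl. For both subunits Ctrl 4 held the lowest FPKM.

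Set against its constitutive counterpart within a library, Psmb10 FPKM over Psmb7 FPKM was 0.308, 0.254, 0.291 and 0.346 in SA 1 to 4, against 0.247, 0.205, 0.252 and 0.165 in Ctrl 1 to 4. The lowest SA ratio lay just above the highest Ctrl ratio. No test was made of this ratio because it was looked at with the values known. In CPM the groups did not overlap in 3.12% of all tested genes, and no such share was computed for FPKM ratios. Psmb9 over Psmb6 averaged 0.157 ± 0.0391 in SA and 0.126 ± 0.0447 in Ctrl, and Psmb8 over Psmb5 averaged 0.183 ± 0.0187 in SA and 0.154 ± 0.0243 in Ctrl (SD, n = 4 each), with overlapping groups.

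NLRC5, the transactivator of class I genes, was encoded by the gene with the smallest unadjusted p among those higher in SA. Nlrc5 stood at 27.2, 22.7, 33.1 and 23.9 CPM in SA 1 to 4, against 15.9, 16.8, 24.9 and 20.2 CPM in Ctrl 1 to 4. Ctrl 3 lay above SA 2 and SA 4, and the other 3 Ctrl libraries lay below all 4 SA libraries. The fold change was 1.37 with a 95% interval from 1.04 to 1.80, a log2 fold change of 0.46 ± 0.18 (SE; unadjusted p = 0.0272 and adjusted p = 0.718, edgeR). The chains and loading genes named above had values on both sides of 0. Markers of T and NK cells summed to 9.20 to 13.8 CPM in SA and 3.30 to 6.83 CPM in Ctrl libraries. Of 9 markers 5 were tested, and all 5 were positive. Cd8a (2 to 33 counts in a library) and Gzma (1 to 86 counts) had adjusted p = 0.00394 and 0.00283 in DESeq2. In edgeR these were 0.0819 and 0.227. Over all genes 0.346% were past the threshold in DESeq2. Of the untested markers, Cd3d, Cd3g and Cd8b1 had higher mean CPM in SA and Cd3e a lower one. The part of these markers in the level of Nlrc5 was not tested.

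Among class II genes, those of the surface molecules had negative fold changes that came near 0 or turned positive without Ctrl 1. H2-Aa and H2-Ab1 encode the alpha and beta chain of the I-A molecule. H2-Aa stood at 50.1, 72.6, 51.0 and 69.5 CPM in SA 1 to 4, against 115, 60.3, 66.0 and 54.3 CPM in Ctrl 1 to 4. H2-Ab1 stood at 46.0, 62.6, 45.4 and 66.3 CPM in SA 1 to 4, against 110, 60.2, 66.4 and 30.3 CPM in Ctrl 1 to 4. In both genes Ctrl 1 was far above the other 7 libraries, which overlapped. The log2 fold changes were -0.28 ± 0.23 for H2-Aa (SE; adjusted p = 0.992, edgeR) and -0.27 ± 0.30 for H2-Ab1 (SE; adjusted p = 0.996, edgeR). Without Ctrl 1 they were 0.01 for H2-Aa and 0.07 for H2-Ab1.

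H2-Eb1, the beta chain of the I-E molecule, stood at 31.4, 48.7, 30.9 and 49.8 CPM in SA 1 to 4, against 90.8, 42.3, 50.8 and 32.5 CPM in Ctrl 1 to 4. Its log2 fold change was -0.43 ± 0.28 (SE; adjusted p = 0.971, edgeR) and -0.06 without Ctrl 1. Its partner H2-Ea is listed at 0 in every library, and RefSeq lists H2-Ea of the reference strain as a transcribed pseudogene. H2-Eb2 had 5 to 13 counts in SA and 0 to 10 counts in Ctrl libraries and was not kept.

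Cd74 encodes the invariant chain, which occupies the groove of new class II molecules and guides them to the compartment where peptide is loaded. Cd74 stood at 110, 158, 125 and 159 CPM in SA 1 to 4, against 249, 127, 164 and 135 CPM in Ctrl 1 to 4. Here too Ctrl 1 was the highest and the other Ctrl libraries lay within the SA range or just above it. The log2 fold change was -0.29 ± 0.21 (SE; adjusted p = 0.987, edgeR) and -0.05 without Ctrl 1. Counts of H2-Aa over counts of Cd74 averaged 0.44 ± 0.0231 in SA and 0.435 ± 0.0377 in Ctrl libraries (SD, n = 4 each), a ratio that varied far less than either gene's level.

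**Figure D3:**
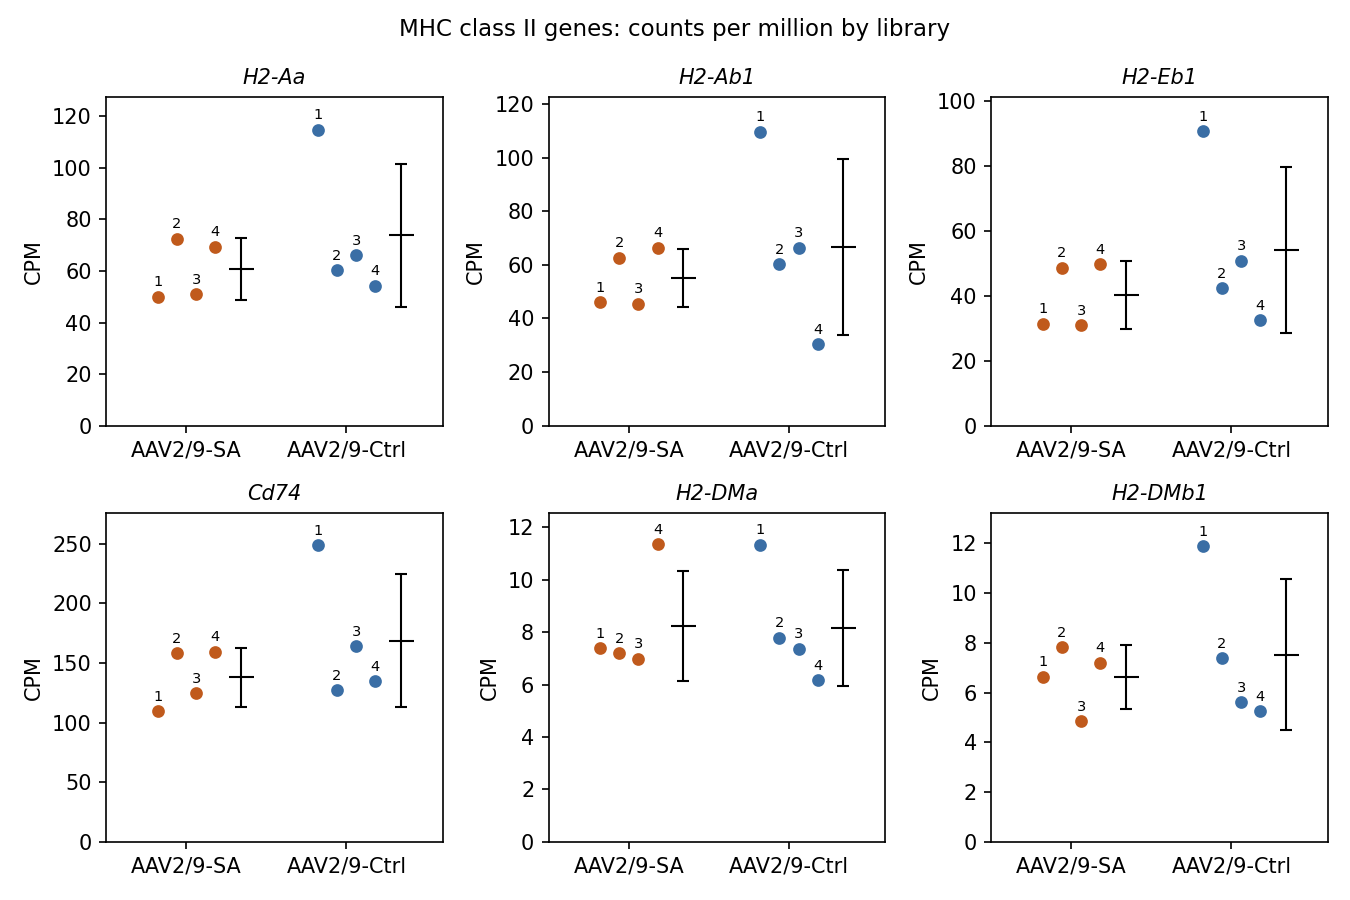
Levels of 6 class II genes in each library. The vertical axes are CPM from 0, points are libraries with their replicate numbers, SA left of Ctrl, and the bars are the mean ± SD of 4 libraries. Ctrl 1 is the highest library in H2-Aa, H2-Ab1, H2-Eb1, Cd74 and H2-DMb1, and the remaining Ctrl libraries overlap the SA libraries.

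The DM and O molecules work inside the cell, DM exchanging the invariant chain fragment for peptide and O restraining DM. H2-DMa stood at 7.38, 7.19, 6.98 and 11.4 CPM in SA 1 to 4, against 11.3, 7.79, 7.36 and 6.17 CPM in Ctrl 1 to 4, a log2 fold change of 0.02. H2-DMb1 stood at 6.64, 7.82, 4.84 and 7.20 CPM in SA 1 to 4, against 11.9, 7.38, 5.61 and 5.24 CPM in Ctrl 1 to 4, a log2 fold change of -0.18, and of 0.12 without Ctrl 1. H2-DMb2 stood at 0.805 to 1.13 CPM in SA and 0.621 to 0.966 CPM in Ctrl libraries, a log2 fold change of 0.38. The 2 DM beta genes share 22.7% of the 50-base words in the H2-DMb1 transcripts, so their counts are uncertain against each other. H2-Ob stood at 1.14 to 1.45 CPM in SA and 0.483 to 2.46 CPM in Ctrl libraries, a log2 fold change of 0.03, and its partner H2-Oa is listed at 0. For all 4 of these genes the edgeR adjusted p = 0.996.

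CIITA, the master regulator of class II genes, was close to the floor. Ciita had 9, 8, 12 and 11 counts in SA 1 to 4 and 10, 9, 17 and 3 counts in Ctrl 1 to 4, or 0.398 to 0.83 CPM in SA and 0.215 to 1.03 CPM in Ctrl libraries. It was too low for the filter of edgeR, DESeq2 gave a log2 fold change of -0.16 (adjusted p = 0.998), and no difference was detectable at this depth.

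Ctrl 1 was the highest of the 8 libraries in 6 of the 8 tested class II genes and in 12 of all 26 rows, against 15% of all tested genes. The sum of H2-Aa, H2-Ab1 and H2-Eb1 was 127 to 186 CPM in SA and 117 to 315 CPM in Ctrl libraries. In Ctrl 2 and Ctrl 3 that sum was 163 and 183 CPM. Without Ctrl 1 the median log2 fold change of the class II genes was 0.09, against -0.23 with it. Ctrl 1 was also the highest library for Lyz2, Ccr2 and Cx3cr1 among 7 tested macrophage markers and for Itgax, Flt3 and Siglech among 8 tested dendritic cell markers. It was the highest for none of the 5 Kupffer cell markers. Of the 7 tested macrophage markers, 4 had positive and 3 negative log2 fold changes. The negative ones were Lyz2 (-0.54), Ccr2 (-1.43) and Cx3cr1 (-1.775), with adjusted p = 0.662, 0.48 and 0.367 (edgeR). Cx3cr1 was the 1 macrophage marker past the threshold in DESeq2 (adjusted p = 0.0204), as were 0.346% of all genes.

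The summed macrophage markers were 316 to 416 CPM in SA and 322 to 478.5 CPM in Ctrl libraries, with the highest value in Ctrl 1 and Itgam listed at 0. The summed dendritic cell markers were 23.2 to 26.6 CPM in SA and 19.9 to 33.2 CPM in Ctrl libraries, again highest in Ctrl 1. The summed B cell markers were 4.96 to 7.01 CPM in SA and 2.66 to 6.96 CPM in Ctrl libraries, with Ms4a1 listed at 0, and the summed Kupffer cell markers 390 to 557 CPM in SA and 228 to 446 CPM in Ctrl libraries. The part of these cells in the class II levels was not tested. Stellate cell markers, with Lrat listed at 0 in the counts but not in the FPKM table, summed to 176 to 201 CPM in SA and 207 to 489.5 CPM in Ctrl libraries, and bile duct markers to 6.04 to 9.45 CPM in SA and 6.69 to 14.9 CPM in Ctrl libraries. Ctrl 1 held the highest sum of the macrophage, dendritic cell, stellate cell and bile duct lists, and the part of the last pair was not tested either.

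Ctrl 4 stood at the other end. It was the lowest of the 8 libraries in 13 of the 26 rows, among them 7 of 13 class I, 4 of 5 loading and 2 of 8 class II genes, against 25.1% of all tested genes. Its deviation followed base composition: over 12126 tested genes with a transcript in GENCODE M21, the median log2 deviation of Ctrl 4 was 0.45 in the class of lowest GC content and -0.44 in the class of highest, of 5 classes of equal size. The other 7 libraries stayed between -0.15 and 0.15 in every class. Of the 26 rows, 10 belonged to the class of highest GC content and 0 to the lowest.

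Among the members, the distance of Ctrl 4 from the other libraries differed from gene to gene, also between genes of similar GC content. Whether it followed GC content over the 26 rows was not tested. H2-Ab1 transcripts have 57.3% GC and H2-Aa transcripts 46.5%, and counts of H2-Aa over H2-Ab1 were 1.05 to 1.16 in SA libraries and 1.05, 1, 0.995 and 1.79 in Ctrl 1 to 4. A small constant was added to CPM before log2 was taken, here and for the GC classes, which shrinks the deviations of genes with low CPM. Relative to the mean of the other 7 libraries, Ctrl 4 was at -1.04 on the log2 scale in H2-Ab1 and at -0.29 in H2-Aa. Cd74, with 56.6% GC, was at -0.16, less far down than H2-Aa. Among class I genes it was at -1.41 in H2-Q5 (59.3% GC) and at -0.66 in H2-D1 (55.9% GC), and it was higher than the others in H2-Q1 (0.35, 49.3% GC) and H2-Q6 (0.36, 54.9% GC). H2-Q2 (58.8% GC) was at -0.06 and Tapbp (57.1% GC) at -0.26, while H2-T22 (50.6% GC) and H2-M3 (51% GC) were both at -0.48. Without Ctrl 4 the median log2 fold changes were -0.29 for class I, -0.35 for class II and -0.08 for loading and regulation. When the fit took in the mitochondrial share, 0 of the 26 rows had an adjusted p under 0.05.

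**Figure D4:**
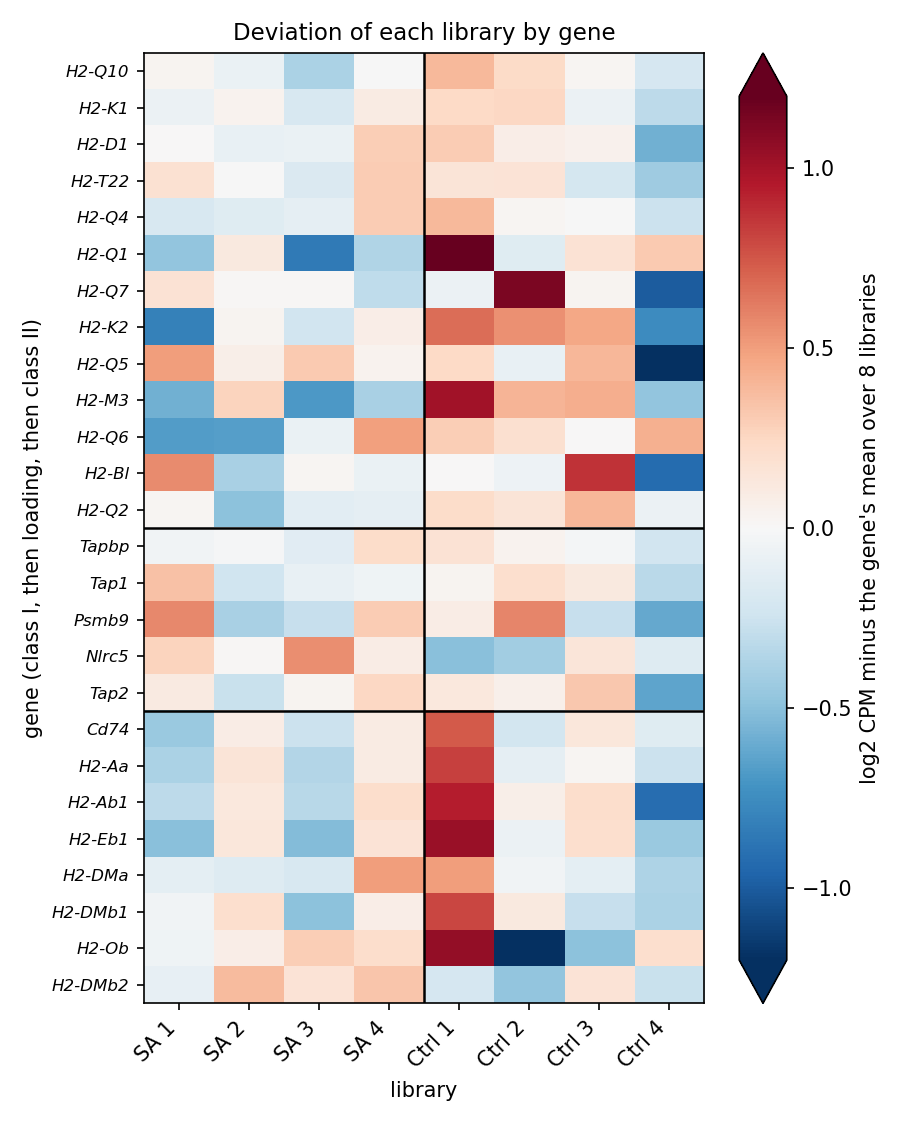
Deviation of each library from the gene's mean over 8 libraries. Rows are genes (class I, then loading and regulation, then class II), columns are libraries with SA left of Ctrl, and color is log2 CPM minus the gene's mean. Ctrl 1 is high across most class II genes, and Ctrl 4 is the lowest library in 13 of 26 rows. H2-Q5, H2-Q7, H2-Bl and H2-Ab1 are among those furthest down in Ctrl 4.

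Several members could be read in only 1 of the 2 deposited tables. The count table lists 18 members at 0, and 4 of these, B2m, H2-T23, Psmb10 and H2-Ke6, are in the FPKM table. H2-T23 encodes the chain of Qa-1, a ligand of inhibitory receptors on NK cells. It stood at 164, 79.5, 140 and 223 FPKM in SA 1 to 4, against 192, 183, 175 and 101 FPKM in Ctrl 1 to 4, a log2 difference of -0.15 ± 0.33 (SE; limma on log2(FPKM + 1), adjusted p = 0.999). H2-Ke6, also known as Hsd17b8, encodes a hydroxysteroid dehydrogenase and no presenting molecule. It stood at 68.0, 96.5, 65.0 and 114 FPKM in SA 1 to 4, against 108, 89.0, 92.4 and 40.7 FPKM in Ctrl 1 to 4. In both genes the groups overlapped widely.

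For these genes a 0 in the count table stands beside transcript measured in the other table. Each of the 4 overlaps another annotated gene in GENCODE M21, namely Patl2 for B2m, A930015D03Rik for H2-T23, Gm16156 for Psmb10 and Gm20427 for H2-Ke6. Among genes that stand in both deposited tables and in GENCODE M21, 478 of 482 listed at 0 in the counts (99.2%) overlap another annotated gene, against 50.7% of 8027 with counts. Kept members with such an overlap are H2-T22, H2-Q4, Cd74, Ciita, H2-Eb1, H2-DMa, Tapbp, Tap1, Tap2, Psmb8, Psmb9 and Nlrc5. Whether their counts were lowered by it was not tested. The 14 other members listed at 0 are H2-M1, H2-M9, H2-M10.1, H2-M10.3, H2-M10.4, H2-M10.5, H2-M11, H2-Q3, H2-T10, H2-T24, H2-Ea, H2-Oa, H2-Pa and H2-Pb. Of these, H2-T10, H2-T24, H2-Oa and H2-Pa also overlap another annotated gene, so whether their 0 means no transcript cannot be told. H2-Ea is not in GENCODE M21, so its overlap could not be checked. For the rest, a 0 alone does not show that there was no transcript. The 5 not kept beside H2-Eb2 were H2-M5 with 7 counts over all libraries, H2-M10.6 with 2, and H2-M10.2, H2-T18 and H2-T3 with 1 each.

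H2-T22 differed between the tables in another way. Its CPM differed little between the groups, yet its FPKM values were 0.709, 0.358, 0.545 and 1.17 in SA 1 to 4, against 65.1, 0.556, 63.2 and 34.6 in Ctrl 1 to 4. All 4 SA libraries and Ctrl 2 were near 0 on that scale, and the other 3 Ctrl libraries were high. The log2 difference was -3.72 ± 1.11 (SE; limma on log2(FPKM + 1), adjusted p = 0.999). Of the 50-base words in H2-T22 transcripts 53.5% occur on either strand of another gene's transcripts, 31.2% in H2-T10, which is listed at 0 in the counts. The same share was 36.4% in H2-Q4, 19.1% in H2-Q10, 12.8% in H2-D1, 9.63% in H2-K1, 0.514% in H2-Aa and 0% in H2-Ab1, H2-Eb1 and Cd74. H2-Q4 likewise jumped on the FPKM scale, with 3.29 to 5.72 FPKM in SA and 33.1, 0.412, 25.6 and 4.58 FPKM in Ctrl 1 to 4. Such jumps also occurred in class I pathway genes outside the set. Psme2 had 27.42 to 48.67 CPM over all libraries. Its FPKM were 0.633, 62.55, 0.822 and 74.95 in SA 1 to 4, against 71.3, 61.1, 53.3 and 2.18 in Ctrl 1 to 4. Canx had 346 to 512 CPM and 5.28 to 142 FPKM. Whether shared words account for the jumps was not tested. Of 17 genes fitted in both tables, 12 had the same direction in both. Levels of the class I chains with large shared shares are uncertain in both tables, whereas the class II surface chains share almost no words with other genes.

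**Figure D5:**
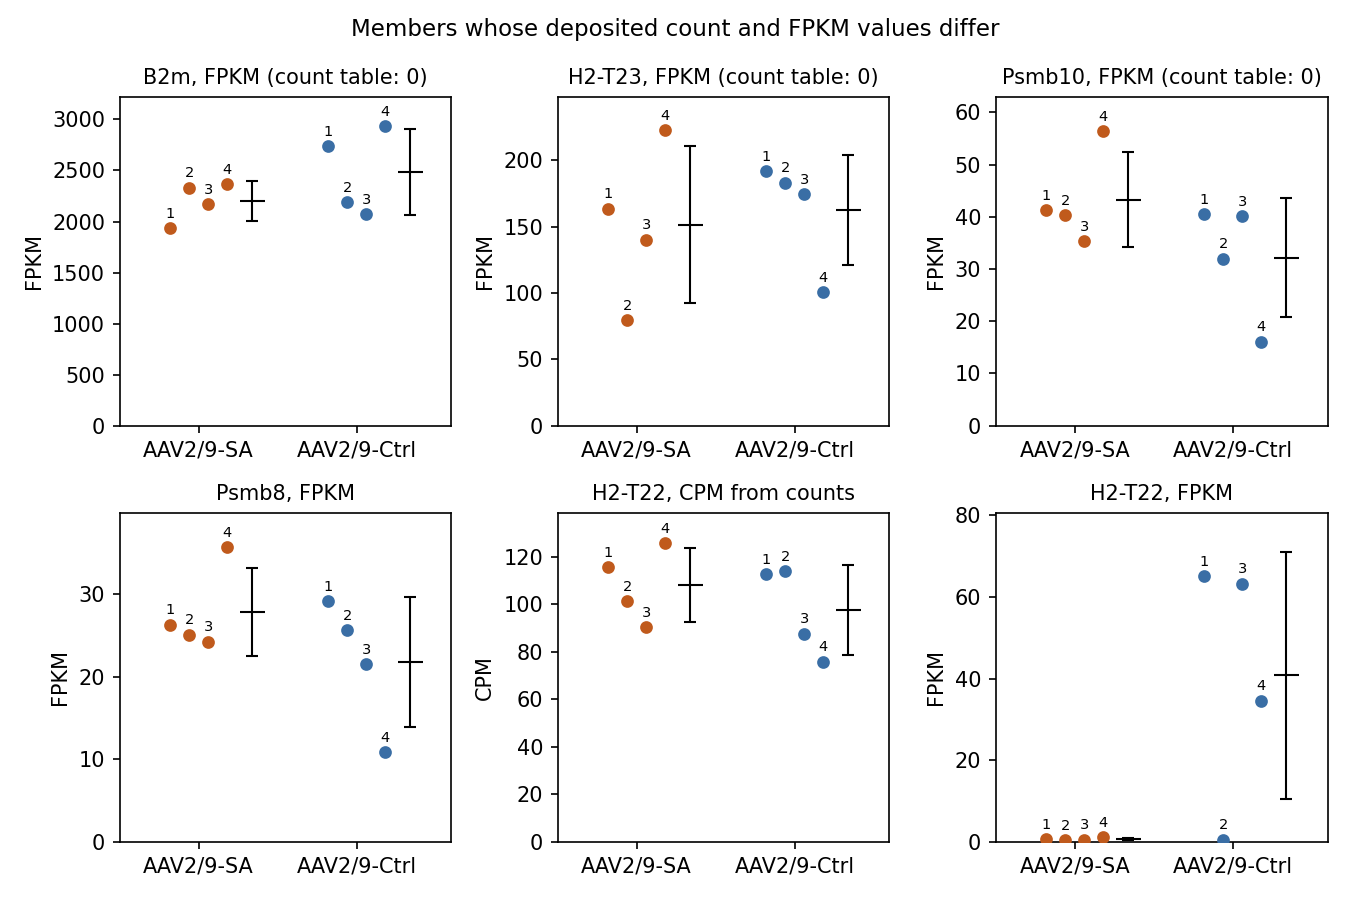
Members whose deposited count and FPKM values differ. Panels give FPKM of B2m, H2-T23, Psmb10 and Psmb8, then H2-T22 as CPM and as FPKM, with axes from 0, points for libraries with their replicate numbers, SA left of Ctrl, and bars for the mean ± SD of 4 libraries. H2-T22 stays between 75.7 and 126 CPM in all 8 libraries and is under 1.2 FPKM in 5 of them.

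The other genes of the pathways, in 4 lists, had 0 members past the threshold in edgeR and in DESeq2, and 0 with an unadjusted p under 0.05 in edgeR. Over all tested genes these shares were 0.0162% in edgeR, 0.346% in DESeq2 and 6.21% unadjusted. Of 18 tested genes of the class I pathway outside the set (chaperones, proteasome activators and subunits, and class I relatives), 9 were positive and 9 negative, with a median of 0.01. The smallest p belonged to Ganab, a glucosidase of glycoprotein folding (0.24), Pdia3, a disulfide isomerase of the loading complex (-0.17), and Pomp, a proteasome assembly factor (-0.20). Of 16 tested genes of the class II pathway outside the set (lysosomal proteases, X and Y box factors, and ubiquitin ligases), 8 were positive and 8 negative, with a median of -0.0038. Marchf1, the ligase that removes class II molecules from the surface of resting cells, had 0.58 (adjusted p = 0.833, edgeR), with 5.70, 7.01, 10.1 and 6.36 CPM in SA 1 to 4, against 3.41, 3.59, 4.89 and 7.54 CPM in Ctrl 1 to 4. Nfya, a Y box factor, had -0.25 and Rfx5, an X box factor, had 0.30.

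Interferon gamma signalling, which induces both classes, had 13 positive and 7 negative among 20 tested genes, with a median of 0.07. Ifng, the gene of interferon gamma itself, had 1 count over all libraries and was not tested. Gbp4, Igtp and Cxcl10 are listed at 0 in the counts, though Igtp and Cxcl10 are in the FPKM table. Irgm2, an interferon-induced GTPase, was the 1 gene of this list whose SA libraries all lay above the Ctrl libraries (1.66% of all tested genes did), at 79.1, 73.1, 67.5 and 69.5 CPM in SA 1 to 4, against 46.1, 56.8, 63.8 and 66.9 CPM in Ctrl 1 to 4, a log2 fold change of 0.31 (adjusted p = 0.828, edgeR). Cxcl9, a chemokine for T cells, had 0.42 and Ifngr1, a chain of the interferon gamma receptor, had -0.22. Of 6 tested genes of costimulation, the second signal that antigen-presenting cells give to T cells, 4 were positive and 2 negative, with Icosl at -0.78, Cd80 at 0.54 and Cd83 at -0.38.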

How the data were processed

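RNA came from frozen liver and libraries from a NEBNext Ultra kit, per the labels' protocols, which do not call it strand-specific. Counts of a gene that overlaps an antisense neighbour are therefore uncertain, and reads there may be shared or left uncounted. Counts in the deposited table are whole numbers of reads for each gene, unnormalized. The deposited FPKM table holds FPKM values computed by the authors for 9265 rows, 23 of them antigen presentation genes, with symbols in capitals that were matched without regard to case. The submitters' processing notes name HISAT2, StringTie 2.2.1 and FastQC 0.19.7, and both GRCm39 and mm10 as builds with no role, so no coordinates were taken from the files. Over 7940 genes in both tables, a library's deviations from the gene mean correlated at 0.25 to 0.43 between FPKM and counts, a description across genes.

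Libraries were grouped by title. Counts were tested with the quasi-likelihood test of edgeR 4.0.16 (R 4.3.3) with TMM factors and filterByExpr, 4 SA against 4 Ctrl libraries without a block, two-sided, with Benjamini-Hochberg adjustment over 12358 genes and a threshold of 0.05. CPM are counts over the tested counts of the library times its TMM factor, times 1e+06. Standard errors from edgeR are the size of the log2 fold change over the root of F. The fit was tested on simulated counts. FPKM were fitted with limma 3.58.1 on log2(FPKM + 1) for genes with at least 0.5 FPKM in at least 4 libraries, which understates changes of low genes. DESeq2 1.42.0 was an alternative, as were RLE factors, other filters, a pseudocount of 0.1, each library left out, the replicate number as a block and the mitochondrial share as a covariate. No pair of libraries agreed within sampling noise (lowest chi-square per degree of freedom 24.6). Shared 50-base words, GC content and overlapping genes were computed from GENCODE M21, promoters and synonyms taken from RefSeq GRCm38.p6.

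The genes, lists and tests were chosen with earlier results of these data known. Named with values are all kept genes, and from each other list the counts by direction and up to 3 genes with the smallest p. Psme2 and Canx were named besides, for the difference between their FPKM and CPM.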

Additional observations from a re-analysis of the deposited data

Results flagged for a closer look

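Of 52 groups of 4 libraries, 1 for each group of each tested gene, 2 held a library far from the other 3 (a gap that is a large part of the group's range, past Dixon's 95% critical value), where chance gives about 1 in 20. Both were SA 4, the most deeply sequenced library. In H2-Q4 it stood at 44 CPM, with 31.2 to 33.1 CPM in SA 1 to 3. In H2-DMa it stood at 11.4 CPM, with 6.98 to 7.38 CPM in SA 1 to 3. Without SA 4 the log2 fold change was -0.21 for H2-Q4 and -0.19 for H2-DMa.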

How the results depend on the processing

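No antigen presentation gene had an adjusted p under 0.05 in any fit run: edgeR with RLE factors, other filters, a block, a covariate or a library left out, DESeq2, and limma on FPKM. Leaving out 1 library moved the class medians of log2 fold change between -0.29 and -0.11 for class I, -0.35 and 0.09 for class II and -0.08 and 0.12 for loading, with 0 antigen presentation genes past the threshold throughout. The class I median, -0.23 as reported, was -0.07 with the replicate number as a block and -0.02 on log2(FPKM + 1), where 7 of its 13 genes were fitted, and the class II median was -0.15 in both. The ranges that crossed 0 were -0.41 to 0.0082 for H2-Aa, -0.52 to 0.0689 for H2-Ab1, -0.28 to 0.33 for H2-Bl, -0.12 to 0.15 for H2-D1, -0.19 to 0.21 for H2-DMa, -0.32 to 0.12 for H2-DMb1, -0.24 to 0.54 for H2-Ob, -0.18 to 0.00577 for H2-K1, -0.21 to 0.0505 for H2-Q4, -0.51 to 0.25 for H2-Q7, -0.10 to 0.35 for Psmb9, -0.14 to 0.0642 for Tap1, -0.13 to 0.16 for Tap2 and -0.0706 to 0.0703 for Tapbp. Other ranges kept their sign but moved by over 1.5 times from the value with all libraries. They were 0.0366 (without Ctrl 4) to 0.51 for H2-Q5, -0.69 (without SA 4) to -0.22 for H2-Q6, 0.0411 (without Ctrl 4) to 0.24 for H2-T22, -0.33 to -0.13 (without Ctrl 1) for H2-Q10, -0.97 to -0.49 (without Ctrl 1) for H2-M3, -1.03 to -0.48 (without Ctrl 1) for H2-Q1, -0.61 to -0.06 (without Ctrl 1) for H2-Eb1 and -0.40 to -0.05 (without Ctrl 1) for Cd74. Nlrc5 ranged from 0.338 to 0.597, which is within 1.5 times. On log2(FPKM + 1), filtered or not, the sign turned for H2-T22 (-3.72), H2-Q1 (0.0151), H2-Q7 (0.289), Tapbp (-0.11) and Tap1 (0.0754), and with a pseudocount of 0.1 these were -4.56, 0.0185, 0.333, -0.118 and 0.0793. With the mitochondrial share as a covariate it turned for H2-D1 (-0.033), H2-DMa (-0.0449), Tapbp (-0.023) and Tap2 (-0.0408). The cause was not tested.

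The replicate numbers did not pair the samples (correlations -0.023, -0.0198, 0.219 and -0.218 between same-numbered SA and Ctrl libraries, n = 12358 genes). With the number as a block, 0 antigen presentation genes and 6 genes in all had an adjusted p under 0.05, against 2 without it, and H2-Bl turned to 0.0381. Depth limits H2-Q2, H2-Bl, H2-Q6, H2-Ob and H2-DMb2, which had 7 to 54 counts in a library, and the genes left untested.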
